A study of Mus musculus with 2 samples.

Results

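Messenger RNA of 10 apolipoprotein genes (Apoa1, Apoa2, Apoa4, Apoa5, Apob, Apoc1, Apoc2, Apoc3, Apoe and Apoh) was followed across liver cell classes of a mouse model of hepatocellular carcinoma. The genes were taken as a fixed list, and all 10 of 10 were among the 31053 genes counted. The samples were 1 library of macroscopic lesions and 1 library of early lesions, both from mice with floxed alleles of the Rb gene family (the triple knockout model) and both sorted for YFP, which marks cells in which Cre had acted. The early library pooled 3 mice, the labels give no number of mice for the macroscopic library, and no wild-type or unrecombined sample was analysed. Neither the promoter nor the vehicle that brought Cre is given in the labels, so which liver cells it could reach is not known from them. All cells of both libraries were labelled untreated, and the labels give no strain or age. Cells were released by enzymatic digestion and their RNA was counted with the 10x 3′ v3 droplet method. The deposited value is a UMI count, in which each RNA molecule caught from a gene under a cell barcode counts once.

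Apolipoproteins are the protein shell of the particles that carry lipid in blood. Apob is the scaffold of very low density lipoprotein, Apoa1 and Apoa2 build high density lipoprotein, and the small exchangeable proteins Apoc1, Apoc2, Apoc3, Apoa4 and Apoa5 set how fast lipoprotein lipase and liver receptors clear triglyceride. Apoe is the ligand by which remnants are taken up through low density lipoprotein receptors, and Apoh (beta-2 glycoprotein I) is a plasma protein that binds anionic phospholipid. Hepatocytes are the main source of all of these in mouse liver, and Apoe is also made by macrophages, where it serves cholesterol efflux under control of liver X receptors.

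Barcodes with at least 1000 UMIs were kept, which left 241 of 256 in the macroscopic library (median 14223 UMIs per barcode, 7260252 UMIs in all) and 2620 of 3221 in the early library (median 2946, 12202299 in all). No barcode was shared between the libraries. Xist, made only in female cells, had 0 UMIs in the macroscopic library and 10348 in the early library, and Y-linked genes had 754 and 6, so stage, animal and sex cannot be told apart. Classes were gated on raw UMIs of a few marker genes. A barcode was in the hepatocyte class with Alb (albumin) at 0.5% of its UMIs or more, in the duct class with at least 2 UMIs of Krt19 and Krt7, in the Kupffer class with at least 3 of Clec4f, Cd5l and Marco, in the other macrophage class with at least 3 of Gpnmb and Mmp12, and in the T cell class with at least 2 of Cd3e and Trbc2. Barcodes that passed several gates were kept apart. This gave 101 macroscopic and 54 early hepatocyte barcodes, 1 and 1830 Kupffer barcodes, 8 and 197 other macrophage barcodes, and 20 and 72 T cell barcodes. The 89 duct barcodes were all early.

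The class names were checked against further markers that the gates did not use. All 10 hepatocyte markers and all 10 duct markers were detected in their own class, as were all 12 Kupffer, all 12 other macrophage and all 10 T cell markers. The 10 hepatocyte markers summed to 35489 CPM (a gene's UMIs scaled by all UMIs of the class, so that classes of different size can be set side by side) in the macroscopic and 45866 CPM in the early hepatocyte class, against 905 CPM in early Kupffer, 424 CPM in early other macrophage and 41.3 CPM in early T cell barcodes. The early duct class carried 7492 CPM of them, whose part in the duct values was not tested. Detection did not separate the macrophage classes, since all 12 markers of each list were also found in the other early macrophage class. The Kupffer list summed to 21467 CPM in early Kupffer, 8357 CPM in early other macrophage and 14807 CPM in macroscopic other macrophage barcodes. The other macrophage list summed to 9508, 53490 and 25149 CPM in the same order. In the macroscopic hepatocyte class 57 of 101 barcodes had the nuclear RNA Malat1 below 0.05% of UMIs, against 3 of 54 in the early class. The stage comparison of the 10 genes, the ratios to Alb and the correlations of Apob are therefore given with and without these barcodes. Stage values of other genes are given with all barcodes only. Mitochondrial genes made up over 25% of UMIs in 15 of 101 macroscopic and 5 of 54 early hepatocyte barcodes. There was 1 library per stage, cells are not replicates, and barcodes of the early pool cannot be traced to a mouse, so no test was run. Intervals are exact 95% intervals that cover counting error only, and a difference of 2-fold or more served as the rule of size.

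The 10 genes lie at 5 places in the genome (GRCm38, GENCODE M21). Apoa1 (chr9:46228580-46230466, plus strand), Apoc3 (chr9:46232933-46235636, minus), Apoa4 (chr9:46240696-46243459, plus) and Apoa5 (chr9:46268633-46271919, plus) are neighbours on chromosome 9. Apoe (chr7:19696109-19699188), Apoc1 (chr7:19689481-19692660) and Apoc2 (chr7:19671579-19677941) are neighbours on the minus strand of chromosome 7. Apoa2 is at chr1:171225054-171226379, Apoh at chr11:108343354-108414396 and Apob at chr12:7977648-8016835, all on the plus strand. Of the exonic bases of Apoc2, 79.5% are shared on the same strand with the read-through gene Gm44805, so its counts are uncertain.

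The 250 bases before the RefSeq start were read for 8 of the 10 genes (GRCm38.p6), and 4 of these windows are printed because they stand for the patterns found over the classes: Apoe in every class but T cells, Apob in hepatocyte and duct barcodes, and Apoa1 and Apoa2 in hepatocyte barcodes. Capitals mark matches to the 11 motifs searched on both strands, which were HNF1 (GTTAAT, any base, ATTAAC), HNF4 (CAAAGTCCA), FOXA (TGTTTAC and TGTTTGC), C/EBP (TTGCNNAA), the nuclear receptor repeats DR1 and DR4 (AGGTCA repeated directly with 1 or 4 bases between), the TATA box (TATAAA), PU.1 (GAGGAAGT), AP-1 (TGANTCA) and CRE (TGACGTCA). Sequences run 5′ to 3′ on the strand of the gene.
Apoe, chr7:19699189-19699438, minus strand: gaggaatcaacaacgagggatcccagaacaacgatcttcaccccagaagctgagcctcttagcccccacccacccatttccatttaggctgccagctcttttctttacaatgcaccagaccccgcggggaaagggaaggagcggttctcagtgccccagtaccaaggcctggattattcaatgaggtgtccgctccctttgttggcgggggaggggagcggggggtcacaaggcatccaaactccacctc
Apob, chr12:7977427-7977676, plus strand: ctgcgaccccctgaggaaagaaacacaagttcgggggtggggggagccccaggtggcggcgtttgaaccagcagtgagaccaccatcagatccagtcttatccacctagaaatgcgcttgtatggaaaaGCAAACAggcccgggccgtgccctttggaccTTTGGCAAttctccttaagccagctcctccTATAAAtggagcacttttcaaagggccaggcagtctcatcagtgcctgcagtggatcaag
Apoa1, chr9:46228380-46228629, plus strand: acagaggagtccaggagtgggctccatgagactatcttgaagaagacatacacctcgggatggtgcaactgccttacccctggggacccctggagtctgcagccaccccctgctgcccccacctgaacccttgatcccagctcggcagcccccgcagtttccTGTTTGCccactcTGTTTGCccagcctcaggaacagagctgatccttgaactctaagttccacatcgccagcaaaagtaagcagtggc
Apoa2, chr1:171224804-171225053, plus strand: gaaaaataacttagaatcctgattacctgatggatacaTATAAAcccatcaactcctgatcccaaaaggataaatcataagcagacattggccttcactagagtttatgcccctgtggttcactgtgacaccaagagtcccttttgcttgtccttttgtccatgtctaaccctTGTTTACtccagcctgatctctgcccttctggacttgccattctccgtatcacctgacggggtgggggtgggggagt
The Apoa1 window held TGTTTGC at 2 places, 88 and 75 bases before the start (first base of each match). The Apoa2 window held TGTTTAC 77 bases before it and TATAAA 212 bases before it. The Apob window held TGTTTGC and TTGCNNAA on the opposite strand, 121 and 90 bases before the start, and TATAAA 60 bases before it. The Apoe window matched none of the 11 motifs, nor did those of Apoa4 and Apoc2. A FOXA form was also in the windows of Apoa5 and Apoh. The RefSeq start used for Apoh lies 51943 bases from its GENCODE start, so that window is inside the gene span given above. Those of Apoa1, Apob and Apoa4 lie 50, 29 and 148 bases inside their GENCODE spans, so these windows run into the spans at their 3′ ends. All distances of motifs are to the RefSeq start. Of 27025 windows of the same length over all genes, TGTTTGC was in 4.30%, TGTTTAC in 3.09%, TTGCNNAA in 9.55% and TATAAA in 13.0%. A match is a run of letters and says nothing of binding.

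Apoe, the remnant ligand, was the only one of the 10 genes above 1000 CPM in all of early hepatocyte, duct, Kupffer and other macrophage barcodes. In that library it stood at 29279.6 CPM in other macrophages (95% interval 29015 to 29546), 12726 CPM in Kupffer cells (12636 to 12816), 11055 CPM in hepatocytes (10843 to 11270.3), 8126 CPM in duct cells (7973 to 8280.3) and 98.2 CPM in T cells (59.1 to 153). Counting intervals of neighbours in that order did not overlap, but by the median barcode hepatocytes (10343 CPM) lay above Kupffer cells (9166 CPM), so the order of these 2 classes depends on how barcodes are weighted. In the macroscopic library Apoe stood at 43028 CPM in the 8 other macrophage barcodes, 8074 CPM in hepatocytes and 211 CPM in T cells, and the single Kupffer barcode had 7034 CPM.

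Nearly every macrophage carried the transcript. Apoe was found in 1829 of 1830 early Kupffer barcodes and in 194 of 197 early other macrophage barcodes, against 16 of 72 early T cell barcodes (22.2%) at a median depth of 2463, 7967 and 2566.5 UMIs. Thinned to 1000 UMIs per barcode, the shares were 99.3% of Kupffer, 95.4% of other macrophage and 11.1% of T cell barcodes. The summed level was 129.7-fold higher in Kupffer than in T cells (83.0 to 215) and 298-fold higher in other macrophages than in T cells (191 to 496).

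The 2 macrophage classes differed in level and in spread. Apoe was 2.301-fold higher in early other macrophages than in Kupffer cells (2.28 to 2.33). Over barcodes it ran between 0 and 138447 CPM in other macrophages, with a median of 22295 and a middle range of 9518 to 43840 CPM, and between 0 and 61084 CPM in Kupffer cells, with a median of 9166 and a middle range of 6021 to 13891 CPM, so the classes overlapped. The 96 early barcodes that passed the gates of both macrophage classes had 21118 CPM. In the macroscopic library the 8 other macrophage barcodes lay between 9714 and 67778 CPM, which is inside the early range, and their sum was 1.47-fold higher than the early one (1.44 to 1.503).

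**Figure D1:**
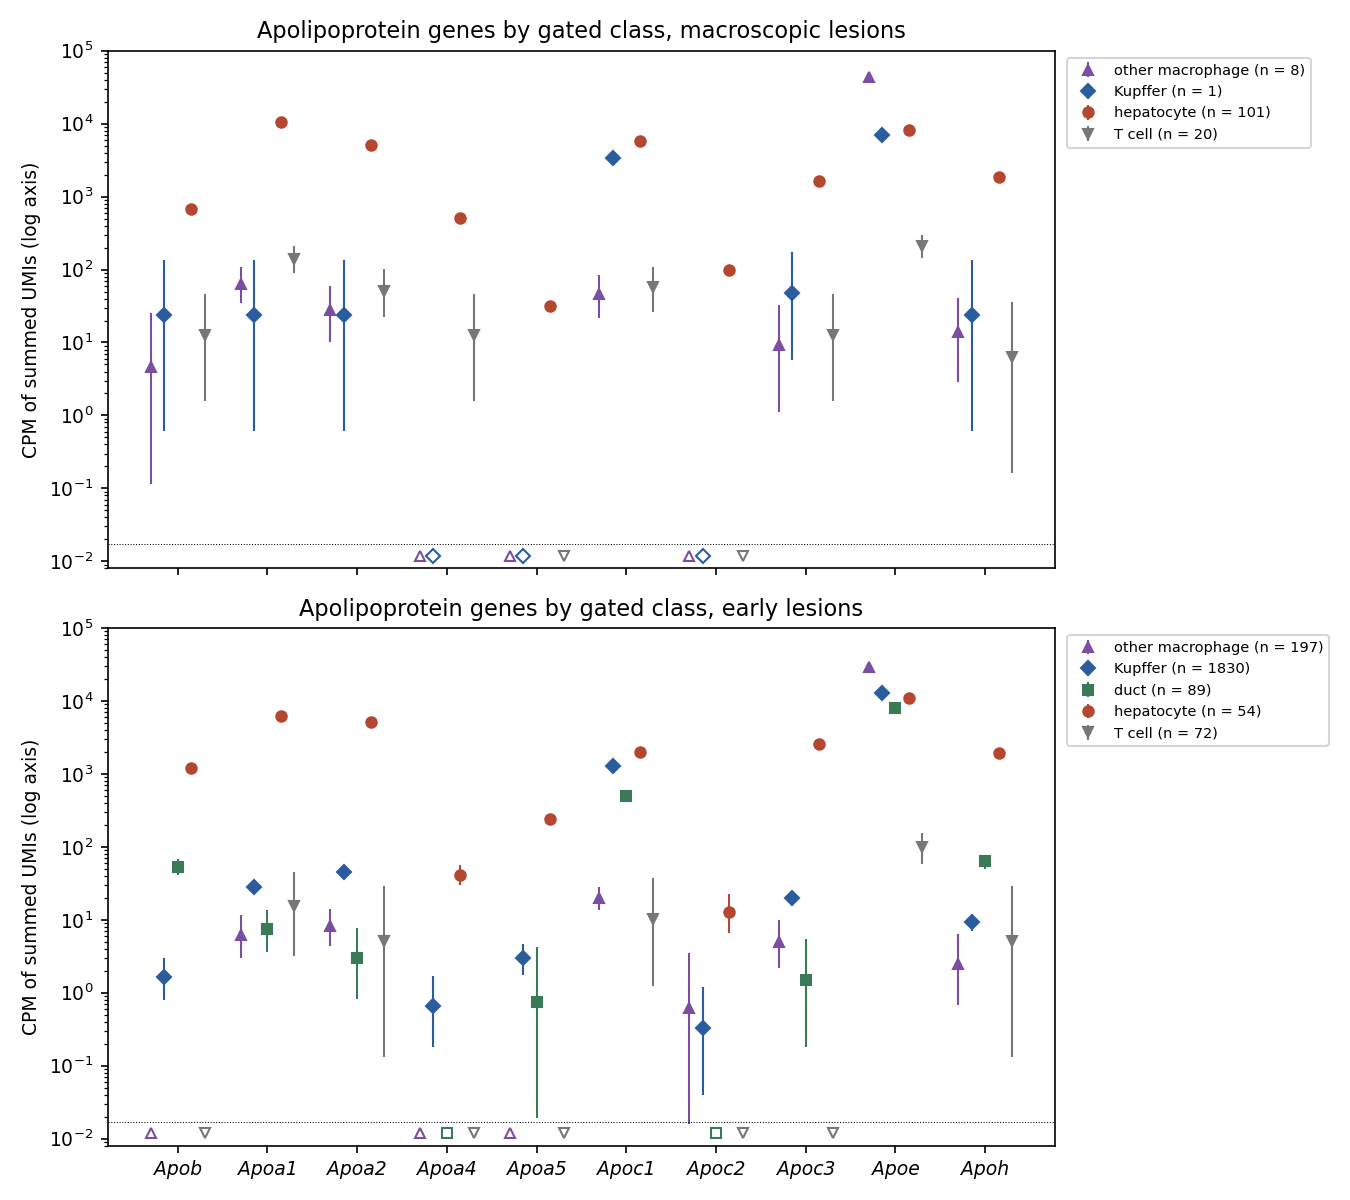
CPM of summed UMIs (log axis) for the 10 genes in each class of the macroscopic (top) and early (bottom) libraries, with exact 95% Poisson intervals and open symbols below the dotted line for 0 UMIs. Apoe lies above 1000 CPM in macrophages and hepatocytes, whereas Apob, Apoa1, Apoa2, Apoa4, Apoa5, Apoc2, Apoc3 and Apoh peak in the hepatocyte class of each library.

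Apoc1, a small protein that hinders receptor uptake and lipase action, separated the 2 kinds of macrophage. In the early library its level was 1281 CPM in Kupffer cells (1253 to 1309.8), 19.97 CPM in other macrophages (13.7 to 28.2), 502 CPM in duct cells (464 to 541), 2012 CPM in hepatocytes (1922 to 2105) and 10.3 CPM in T cells, where it rested on 2 UMIs. Other macrophages were thus 64.2-fold lower than Kupffer cells (45.4 to 93.9), the reverse of the order seen for Apoe. The transcript was found in 81.7% of early Kupffer barcodes, 10.7% of other macrophage barcodes and 2.78% of T cell barcodes.

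Kupffer cells reached 1.57-fold below hepatocytes in Apoc1 (1.49 to 1.65) and 124-fold above T cells (34.3 to 1024). Over Kupffer barcodes it ran between 0 and 7777 CPM, with a median of 999 CPM and 334 of 1830 barcodes at 0. The 96 early barcodes that passed both macrophage gates had 773 CPM, between the values of the 2 classes. In the macroscopic library the same split was seen on few cells: 3420.4 CPM in the single Kupffer barcode (142 UMIs), and 45.8 CPM in the 8 other macrophages (10 UMIs, with 0 UMIs in 3 of the 8). Across the 1830 early Kupffer barcodes, which share 1 library and differ in depth, Spearman's rho of Apoe with Apoc1 CPM was 0.16, and it was 0.12 across the 197 other macrophages.

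**Figure D2:**
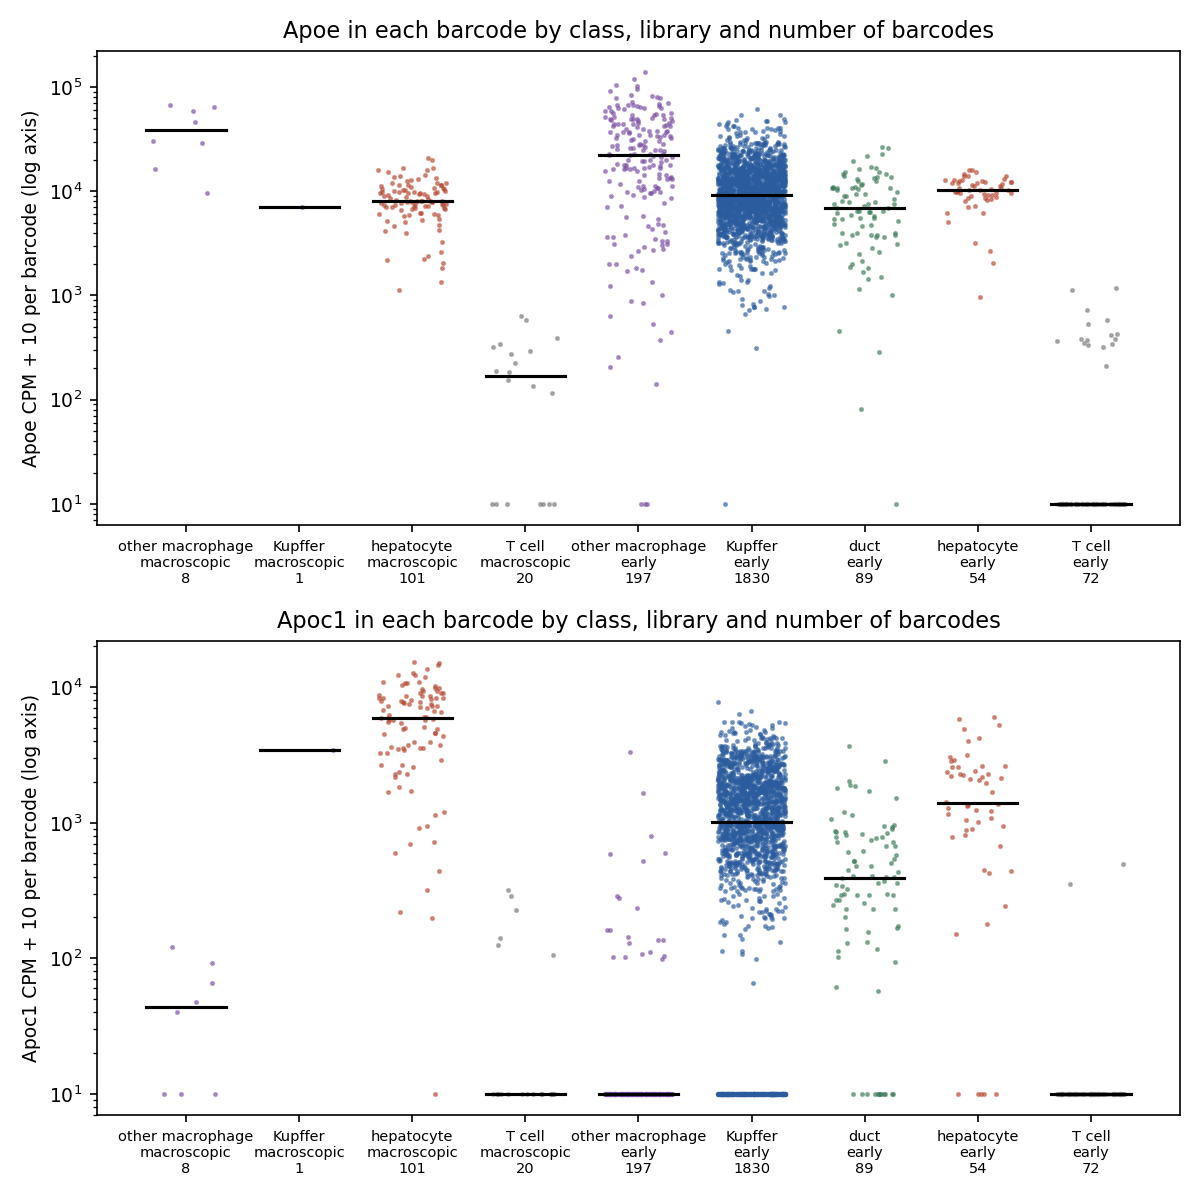
Apoe (top) and Apoc1 (bottom) CPM + 10 in each barcode (log axis) by class and library, with the number of barcodes under each column and the median as a black line. Apoe is high in both macrophage classes, while Apoc1 has a median of 999 CPM in early Kupffer barcodes and of 0 in early other macrophage barcodes.

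The other 8 genes were low in macrophages. Apoa2, a high density lipoprotein subunit, was highest among them in early Kupffer cells with 45.2 CPM, against 5100 CPM in early hepatocytes. Apoa1, the main subunit of the same particle, had 28.5 CPM in Kupffer cells and 6290 CPM in hepatocytes, and was found in 8.14% of Kupffer barcodes and 4.17% of T cell barcodes (0.868% to 11.7%). Apoc3, an inhibitor of triglyceride clearance, had 20.1 CPM in Kupffer cells and 2534 CPM in hepatocytes.

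For Apob, the very low density lipoprotein scaffold, the early Kupffer class held 10 UMIs (1.65 CPM) and the early hepatocyte class 1189 CPM, a 722-fold lower level (391 to 1509). Apoh stood at 9.23 CPM in Kupffer cells and 1964 CPM in hepatocytes. Apoa4, Apoa5 and Apoc2 held 4, 18 and 2 UMIs among 6067326 UMIs of the Kupffer class. In early other macrophages none of the 8 passed 8.11 CPM, and Apob, Apoa4 and Apoa5 had 0 UMIs, which allows up to 1.87 CPM.

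Set against early hepatocytes at the 2-fold rule, 0 of 9 genes with enough UMIs were higher in Kupffer cells and 7 were lower, where 25.3% of 9558 genes were higher and 28.5% lower. Apoe (1.15-fold higher) and Apoc1 (1.57-fold lower) were the 2 within 2-fold, and Apoc2 had too few UMIs. Set against T cells, which should lack these transcripts, 3 of 5 genes with enough UMIs were at least 2-fold higher in Kupffer cells: Apoe, Apoc1 and Apoa2, the last on 1 T cell UMI (23% of 8848 genes were that much higher). In other macrophages 1 of 2, Apoe, was at least 2-fold higher than in T cells (19.6% of 7167 genes). T cells held 19, 2, 1, 3 and 0 UMIs of Apoe, Apoc1, Apoa2, Apoa1 and Apoc3. Each gene tested thus entered the T cell comparisons through its Kupffer or other macrophage UMIs. Both counts against T cells therefore say little about the apolipoprotein genes as a set. Between the 2 macrophage classes 5 genes had enough UMIs, of which Apoe was at least 2-fold higher in other macrophages (7.32% of 8303 genes) and Apoc1, Apoa1, Apoa2 and Apoc3 were at least 2-fold lower (21.9% of genes). Alb, a hepatocyte transcript, was itself 3.80-fold lower there (3.11 to 4.69), near Apoc3 (4.03-fold), Apoa1 (4.57-fold) and Apoa2 (5.57-fold). These 3 genes were above 10 CPM in Kupffer cells only, so they entered through that class.

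Droplets also catch RNA that was free in the suspension, so each gene was set against Alb in the same class. RNA from 1 source keeps its genes in 1 ratio, and Alb is a transcript that macrophages and T cells lack. Early Kupffer barcodes held 244 CPM of Alb, early other macrophages 64.3 CPM and early T cells 31.0 CPM (6 UMIs). Per 100 Alb UMIs, Apoa2 stood at 18.5 in Kupffer cells and 22.9 in hepatocytes (0.81-fold, 0.71 to 0.91), Apoc3 at 8.23 and 11.4 (0.72-fold, 0.60 to 0.87) and Apoa1 at 11.7 and 28.3 (0.41-fold, 0.35 to 0.48). Apob was lower still at 0.674 and 5.35 UMIs per 100 Alb UMIs.

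Apoe and Apoc1 departed from that ratio in the other direction. Per 100 Alb UMIs, Apoe stood at 5206 in early Kupffer cells against 49.7 in hepatocytes, which is 105-fold (103 to 107), and Apoc1 at 524 against 9.04, which is 58.0-fold (55.1 to 61.0). In early other macrophages the Apoe ratio was 917-fold that of hepatocytes (898 to 937) and the Apoc1 ratio 3.44-fold (2.34 to 4.87) on 32 UMIs. Early T cells, on 6 Alb UMIs, had an Apoe ratio 6.37-fold that of hepatocytes (3.84 to 9.96) and an Apoc1 ratio 3.69-fold (0.45 to 13.3). The Apoc1 ratio of other macrophages thus cannot be told from that of T cells. The 1020 Kupffer barcodes with 0 Alb UMIs had 12755 CPM of Apoe and 1259 CPM of Apoc1, and the 810 with Alb had 12698 and 1302 CPM. By contrast Apoa1 stood at 16.3 CPM in Kupffer barcodes without Alb and 40.5 CPM in those with it. In the same order Apoa2 had 34.3 and 55.8 CPM, Apoc3 14.6 and 25.5 CPM, and Apob, on 5 UMIs each, 1.66 and 1.63 CPM. The split did not remove hepatocyte RNA, since the hepatocyte markers summed to 802 CPM without Alb and 1005 CPM with it. Median depth was 2149.5 and 2940.5 UMIs.

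A set of 86 Kupffer barcodes carried at least 3 UMIs of the hepatocyte metabolic genes Rgn, Pck1 and Hpd. They had 12606 CPM of Apoe, 1512.5 CPM of Apoc1 and 120.3 CPM of Apoa2, while the other 1744 had 12734, 1266 and 40.3 CPM. Apoe was thus alike in these and the other Kupffer barcodes, whereas Apoa2 was higher in them.

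In the macroscopic library T cells held 301 CPM of Alb, so the liver-cell RNA found in cells that should lack it was higher than in the early library. Per 100 Alb UMIs, macroscopic T cells had 46.8 of Apoa1, 17.02 of Apoa2 and 19.1 of Apoc1, against 33.3, 16.1 and 18.5 in macroscopic hepatocytes, and each interval of the ratio included 1, while Apoe had a ratio 2.74-fold that of hepatocytes (1.89 to 3.85). Set against the 44 hepatocyte barcodes with Malat1 alone, which held 25.1 Apoa1 UMIs per 100 Alb UMIs, T cells had an Apoa1 ratio 1.87-fold that of hepatocytes (1.17 to 2.83) and an Apoe ratio 3.35-fold (2.31 to 4.71), and the intervals of Apoa2 and Apoc1 included 1. In the 8 macroscopic other macrophages the Apoc1 ratio to Alb, on 10 UMIs, was 1.74-fold that of all hepatocytes (0.84 to 3.21) and 2.25-fold that of the 44 with Malat1 (1.08 to 4.14).

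**Figure D3:**
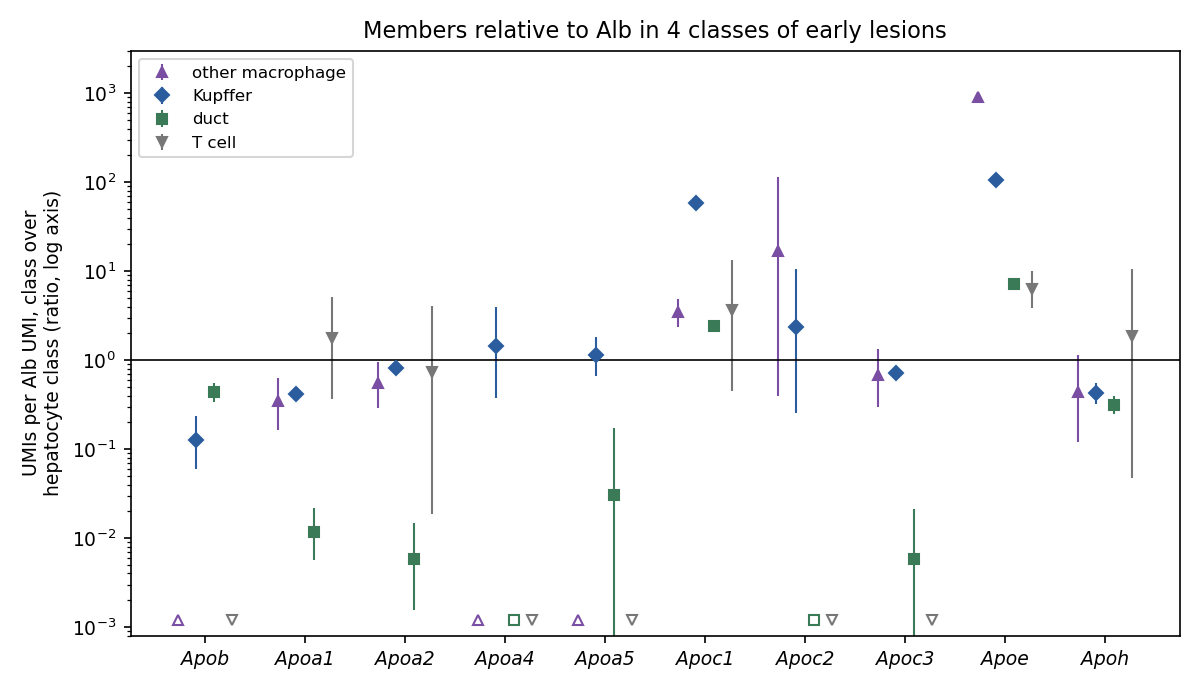
UMIs per Alb UMI in each early class divided by the same in early hepatocytes (log axis), with exact 95% intervals and open symbols at the bottom for 0 UMIs. Apoe lies 917-fold above the hepatocyte ratio in other macrophages and 105-fold in Kupffer cells, Apoc1 58.0-fold in Kupffer cells, and Apoa1, Apoa2 and Apoc3 fall far under it in duct cells.

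Early duct cells differed from macrophages and hepatocytes alike. Apoe (8126 CPM), Apoc1 (502 CPM), Apoh (63.1 CPM) and Apob (53.3 CPM) were at least 2-fold higher there than in T cells, as were 34.8% of 8972 genes. They were 4 of 4 genes with enough UMIs, and T cells held 19, 2, 1 and 0 UMIs of them. Each thus entered the comparison through its duct UMIs, so the count says little about the 10 genes as a set. Apoa1, Apoa2 and Apoc3, in contrast, held 10, 4 and 2 UMIs among 1331336. These 4 genes lay below the early hepatocyte level, Apoe by 1.36-fold, Apoc1 by 4.01-fold, Apob by 22.3-fold and Apoh by 31.1-fold.

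The duct class also held Alb at 2268 CPM, but the ratio to Alb differed by gene. Per 100 Alb UMIs, Apoe was 7.21-fold and Apoc1 2.45-fold the hepatocyte ratio, Apob was 2.27-fold lower and Apoh 3.17-fold lower, and Apoa1, Apoa2 and Apoc3 were 85.4-fold, 173-fold and 172-fold lower. Early T cells, on 6 Alb UMIs, stood at 6.37-fold for Apoe (3.84 to 9.96) and 3.69-fold for Apoc1 (0.45 to 13.3). These T cell intervals include the duct values of both genes. Apob and Apoh were found in 41.6% and 43.8% of duct barcodes, at a median of 11635 UMIs, and in 3.37% each once thinned to 1000 UMIs. The 10 early barcodes that passed both the hepatocyte and the duct gate held 7517 CPM of Alb and 9883 CPM of Apoe, yet 0 UMIs of Apoa1 and 0 of Apoc3.

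A few barcodes inside the early hepatocyte class also lacked Apoa1 and were low in Apoc3. Apoa1 was at 0 UMIs in 6 of its 54 barcodes, which held 115 CPM of Apoc3 and 269 CPM of Apoa2, against 2603 and 5239 CPM in the other 48. These 6 held 26048 UMIs in all, with a median of 3962 per barcode against 18140, so their Apoc3 and Apoa2 values rest on few UMIs. They carried 29330.5 CPM of the 10 duct markers, against 3032 CPM in the other 48. Spp1 alone, which is also on the other macrophage list, made up 24762 CPM. In the macroscopic hepatocyte class every one of the 101 barcodes held Apoa1. Just inside the Alb gate (0.5% to 0.6%) the 7 macroscopic barcodes had 4338 CPM of Apoa1 and 6093 CPM of Apoe, and just outside it (0.4% to 0.5%) the 4 ungated ones had 1624 and 1677 CPM. In the early library the 2 barcodes just inside had 0 and 7202 CPM, and the 3 ungated ones just outside 1571 and 2357 CPM.

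Between the stages, single apolipoprotein genes of the hepatocyte class differed in both directions. Apoa4, Apoc2 and Apoc1 were at least 2-fold higher in macroscopic than in early hepatocytes, 3 of 10 where 9.87% of 8803 genes were that much higher. Apoa5 was at least 2-fold lower, 1 of 10 where 16.8% of genes were. The median log2 ratio was -0.05 over the 10 genes and -0.20 over all genes tested. These are differences between 2 libraries that also differ in animals and sex.

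Of the genes that act on triglyceride clearance, Apoa4 and Apoa5 differed in opposite directions. Apoa4, a chylomicron and high density lipoprotein component induced by fasting in mouse liver, had 503 CPM in macroscopic and 41.8 CPM (39 UMIs) in early hepatocytes, 12.03-fold higher (8.78 to 16.96). It was found in 79.2% of macroscopic and 35.2% of early barcodes. Its neighbour Apoa5, an activator of triglyceride clearance, had 31.4 CPM in macroscopic and 239 CPM in early hepatocytes, 7.61-fold lower (6.19 to 9.38), and was found in 29.7% and 68.5% of barcodes. The 2 genes lie on the same strand of chromosome 9.

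Apoc2, the cofactor of lipoprotein lipase, had 98.0 CPM in macroscopic and 12.9 CPM (12 UMIs) in early hepatocytes, 7.62-fold higher (4.33 to 14.9), subject to the overlap with Gm44805 given above. Thinned to 1000 UMIs per barcode the early class held too few Apoc2 UMIs to show the difference. Apoc3, which opposes Apoc2, had 1632 CPM in macroscopic and 2534 CPM in early hepatocytes, 1.55-fold lower (1.48 to 1.63). Apoc1 had 5835 CPM in macroscopic and 2012 CPM in early hepatocytes, 2.90-fold higher (2.77 to 3.04), and the median barcode had 5898 and 1389 CPM.

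Among the particle builders, Apoa1 had 10511 CPM in macroscopic and 6290 CPM in early hepatocytes, 1.67-fold higher (1.63 to 1.72), and Apoa2 had 5076 and 5100 CPM, a ratio of 0.995 (0.965 to 1.03). Scaling by median of ratios in place of CPM adds 0.28 to every log2 ratio, which takes Apoa1 to 1.02 and past 2-fold, as did thinning barcodes to 1000 UMIs (1.07). Over the 44 macroscopic barcodes with Malat1, however, Apoa1 was only 1.40-fold higher in CPM (1.36 to 1.44). Apob had 675 CPM in macroscopic and 1189 CPM in early hepatocytes, 1.76-fold lower (1.65 to 1.89). Apoe had 8074 CPM in macroscopic and 11055 CPM in early hepatocytes, 1.37-fold lower (1.34 to 1.40), and Apoh 1829.7 and 1964 CPM, 1.07-fold lower (1.02 to 1.13). With that other scaling Apoh and Apoa2 lay above the early level, at log2 ratios of 0.18 and 0.28. None of these 5 reached 2-fold in CPM of the summed classes, but Apob did when barcodes were thinned (log2 ratio -1.35) or weighted equally (-1.16). Barcodes of the 2 stages overlapped for each gene: Apoe, for example, ran between 1131 and 20744 CPM over macroscopic barcodes (median 8110) and between 958 and 16135 CPM over early ones (median 10343).

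Alb itself, which set the gate, was 31553 CPM in macroscopic and 22250.1 CPM in early hepatocytes. Per 100 Alb UMIs more genes were lower in the macroscopic class, with Apob at 2.14 against 5.35, Apoc3 at 5.17 against 11.4 and Apoe at 25.6 against 49.7. Apoc1 remained higher at 18.5 against 9.04, as did Apoa4 at 1.59 against 0.188. Over the 44 macroscopic barcodes with Malat1 the values per 100 Alb UMIs were 2.48 for Apob, 4.07 for Apoc3, 20.9 for Apoe, 14.3 for Apoc1 and 1.37 for Apoa4. Apoc1 was thus 1.59-fold the early ratio (1.51 to 1.66), short of 2-fold. Apoa1 changed side by this measure, at 1.18-fold the early ratio over all macroscopic barcodes (1.15 to 1.21) and 0.89-fold over the 44 (0.86 to 0.91).

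**Figure D4:**
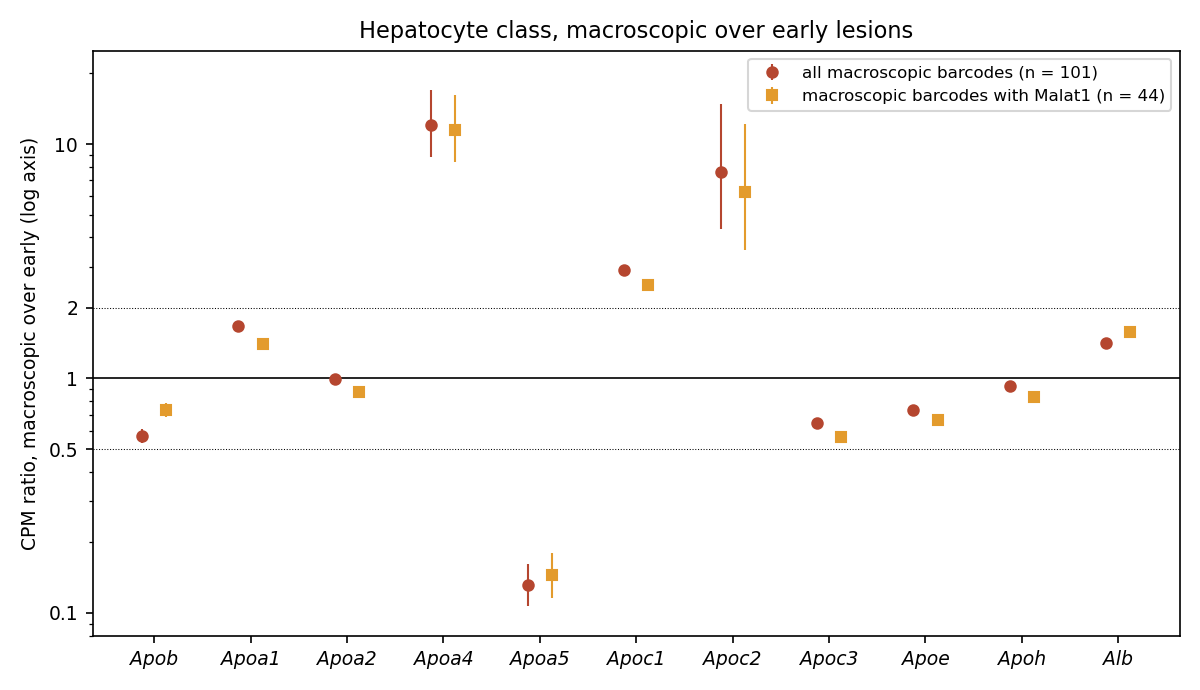
CPM ratio of macroscopic over early hepatocytes (log axis) with exact 95% intervals, for all 101 macroscopic barcodes and for the 44 with Malat1, with dotted lines at 2-fold. Apoa4, Apoc2 and Apoc1 lie above the upper line and Apoa5 below the lower line in both versions.

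Of the 101 macroscopic hepatocyte barcodes, 57 had Malat1 under 0.05% of UMIs, and Apob was the gene of the list that differed most between them and the other 44. Apob had 106 CPM in the low-Malat1 barcodes and 869 CPM in those with Malat1, 8.22-fold lower (6.94 to 9.81), and was at 0 UMIs in 25 of 57 and 2 of 44. Apoc1 went the other way with 8207 CPM in low-Malat1 barcodes and 5024 CPM in those with Malat1, as did Apoa1 (15559.8 and 8786 CPM), Apoa2 (6812 and 4482 CPM) and Apoe (10232 and 7337 CPM). Apoa5 (22.1 and 34.6 CPM, 0.64-fold, 0.41 to 0.96) and Alb itself (21361 and 35035 CPM) were lower in the low-Malat1 barcodes, as Apob was. Their median depth was 17200 UMIs, against 109520.0 in the others.

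The low-Malat1 barcodes were of 2 kinds. In 12 of the 57 mitochondrial genes made up 50.5% to 94.1% of UMIs, whereas in the other 45 they made up at most 11.4% (median 0.0809%), and in the 44 with Malat1 the median was 7.80%. Apob had 673 CPM in the 12 and 51.6 CPM in the 45, where 24 barcodes were at 0 UMIs. Apoc1 had 936 CPM in the 12 and 8900 CPM (8899.8) in the 45, and Apoa1 had 2221 and 16830 CPM. The low Apob and high Apoc1 were thus values of the 45, while the 12 lay below the barcodes with Malat1 in CPM of both genes. Mitochondrial UMIs are part of that CPM total, and Alb was lower in the 12 too (11693 against 35035 CPM). Relative to Alb, Apob was higher in the 12 (77 Apob to 1337 Alb UMIs) than in the 44 (3344 to 134819). Apoc1 was lower in the 12 by that measure as well (107 UMIs, against 19334 in the 44). Apob has by far the longest transcript of the list, with 13934 exonic bases against 537 to 2522 in the other 9. What sets these barcodes apart was not tested.

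Across the 101 macroscopic barcodes Apob had negative rank correlations to several genes, with Spearman's rho of -0.40 to Apoc1, -0.34 to Apoa1 and -0.33 to Apoh. Within the kinds of barcode these values were not negative: across the 44 with Malat1 rho was 0.13 to Apoc1, 0.10 to Apoa1 and 0.28 to Apoh, and across the 45 low-Malat1 barcodes with few mitochondrial UMIs it was 0.16, 0.39 and 0.30. Across the 54 early hepatocyte barcodes Apob went with the same genes, with rho of 0.70 to Apoc1, 0.67 to Apoa1 and 0.68 to Apoh. Barcodes of 1 class share a library and a gate, and differ in depth, so these values are descriptions.

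**Figure D5:**
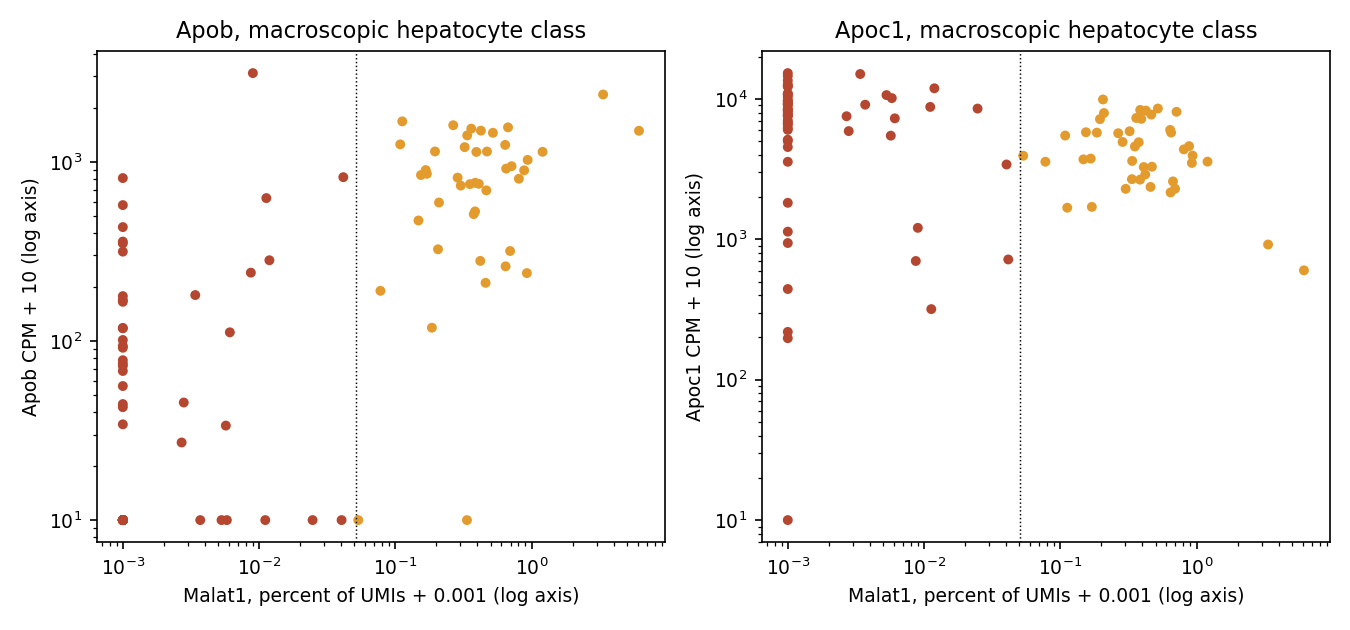
Apob (left) and Apoc1 (right) CPM + 10 against Malat1 (percent of UMIs + 0.001) in the 101 macroscopic hepatocyte barcodes, both axes logarithmic, with the dotted line at 0.05% Malat1. Most barcodes left of the line sit low in Apob and high in Apoc1, and the 12 of them rich in mitochondrial UMIs have a median of 344 CPM of Apob and 700.2 CPM of Apoc1.

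Without the 57 low-Malat1 barcodes Apoa4, Apoc2, Apoc1 and Apoa5 were again the genes past 2-fold. Apoa4 was 11.5-fold higher in macroscopic than in early hepatocytes (8.36 to 16.2), Apoc2 6.25-fold (3.52 to 12.2) and Apoc1 2.50-fold (2.38 to 2.62), where 12% of 8946 genes were at least 2-fold higher. Apoa5 was 6.91-fold lower (5.55 to 8.64), where 12.3% were at least 2-fold lower. Apob came closer to the early level, at 1.37-fold lower (1.28 to 1.47), against 1.76-fold with all barcodes. Apoa1 did so too, at 1.40-fold higher (1.36 to 1.44), against 1.67-fold. Apoc3 (1.78-fold lower), Apoe (1.51-fold), Apoh (1.20-fold) and Apoa2 (1.14-fold) lay further below the early level than with all barcodes.

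Apolipoprotein transcripts also turned up in the 106 macroscopic barcodes that passed no gate. Their 54 low-Malat1 barcodes held 7292 CPM of Apoc1, 4734 CPM of Apoa2 and 2343 CPM of Apoa1, with 1665 CPM of Alb, 5892 CPM of the hepatocyte markers and 13130.1 CPM of 3 erythroid markers. The 52 with Malat1 held 89.2, 69.2 and 104.9 CPM of the same genes and 3362 CPM of Apoe, with 15518 CPM of B cell markers. These barcodes were left out of all class values.

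The genes whose levels most resembled those of 5 of the apolipoproteins were found by Pearson's r of log2(CPM + 10) over the 7 class sums with at least 20 barcodes, among 3543 genes. For Apoe they were Ctsh (0.98), a lysosomal protease, Pdia6 (0.97), a protein-folding enzyme of the endoplasmic reticulum, and Cebpa (0.96), a transcription factor of hepatocytes and myeloid cells. Apoc1 was most like Sec31a (0.98), a coat protein of secretory vesicles, Acsl5 (0.97) and Ube2c (0.97). For Apoc2 the closest were Igf2 (0.99), Serpina3k (0.98) and Spink1 (0.98), for Apob Kng2, Glyat and Hsd17b13 (0.99 or more each), and for Apoa1 Cfhr2, C8g and Serpinf2 (0.99 each). Over 7 sums from 2 libraries many genes can reach such values.

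Other genes of lipoprotein handling were counted in the same way. In the hepatocyte class, low-Malat1 barcodes included, 0 of 6 lipoprotein receptors with enough UMIs were 2-fold higher or lower in macroscopic lesions. Of 20 lipid transporters and enzymes 6 were at least 2-fold lower and 0 were that much higher, and of 16 further apolipoproteins 3 were higher and 3 lower, where 9.87% of all genes were higher and 16.8% lower. The lowest 3 over these lists were Lipc (hepatic lipase), with 1.94 CPM in macroscopic and 84.6 CPM in early hepatocytes (43.7-fold lower, 22.6 to 94.7), Angptl4, a lipase inhibitor, 22.2-fold lower, and Pon1, an esterase of high density lipoprotein, 19.8-fold lower on 7 macroscopic UMIs. The highest were the acute-phase apolipoproteins Saa2 and Saa1, with 72.2 and 135 CPM in macroscopic hepatocytes and 1 and 3 UMIs in early ones, and Apol9a, 3.66-fold higher. Of 25 regulators 1 was past 2-fold upwards and 3 downwards.

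The same lists were counted in early Kupffer cells. Of 13 transporters and enzymes with enough UMIs 9 were at least 2-fold higher in Kupffer than in T cells, as were 5 of 8 receptors and 10 of 15 regulators, where 23% of all genes were that much higher. In the same order 0, 1 and 2 genes were at least that much lower, where 21.5% of all genes were. With 193575 UMIs in the T cell class against 6067326 in the Kupffer class, a gene could enter on its Kupffer UMIs alone. Nr1h3, the liver X receptor alpha that drives Apoe and Apoc1 in macrophages, had 784 CPM in Kupffer cells, 143 CPM in other macrophages and 10.3 CPM (2 UMIs) in T cells. Abca1, the cholesterol exporter, was 65.2-fold higher in Kupffer than in T cells (11.7 to 2578, on 1 T cell UMI). Against hepatocytes the highest were Msr1 (scavenger receptor A, 282-fold), Pla2g7 (224-fold), each on 1 hepatocyte UMI, and Pltp, the phospholipid transfer protein, at least 164-fold with 0 hepatocyte UMIs. Against Kupffer cells, other macrophages were highest in Sorl1 (14.6-fold), Sort1 (8.33-fold) and Trem2 (5.73-fold), all receptors that bind lipoproteins or Apoe.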

How the data were processed

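YFP-sorted liver cells of 2 libraries were analysed. The authors deposited UMI counts, whole and not normalized, for each gene and barcode. Cell Ranger 3.0.2, Seurat 2.3.0 (role not given) and mm10 are named in the submitters' processing notes. The authors' barcode filter and the counting annotation are not given in the sources used here. Gene positions came from GENCODE M21 and upstream sequences from RefSeq (GRCm38.p6). Counts were summed per class and library with Python 3.11.15, NumPy 2.4.6, SciPy 1.17.1 and pandas 2.3.3, without any other normalization than CPM. In the early hepatocyte sum 1 UMI corresponds to 1.07 CPM and in the macroscopic one to 0.194 CPM. Poisson intervals for CPM, conditional binomial intervals for ratios and Clopper-Pearson intervals for shares are exact and cover counting error only. A gene entered a comparison with at least 20 UMIs in both sums together and 10 CPM in either sum. Against a class with 0 UMIs the ratio is a bound computed with 3 counts for that class. No doublet caller was run. Barcodes that passed several gates (5 macroscopic, 115 early) were kept out instead, which leaves doublets within a class unseen. The calculation was tested on simulated counts. With a class as small as the T cells, counting error alone can take genes with few UMIs past 2-fold. The genes and gene lists were chosen with earlier results of these data known. All 10 genes are named, together with the 3 genes most similar to each of 5 of them, and the 3 highest or lowest lipoprotein genes per comparison, of which 1 is not reported here. Alternatives changed gates, weights, depth and scaling. The split at 25% mitochondrial UMIs and the ratios to Alb against barcodes with Malat1 were added after the data were seen.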

Additional observations from a re-analysis of the deposited data

Results flagged for a closer look

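Barcodes under 1000 UMIs entered no comparison, and several of the 10 genes were above the T cell level of their library in them. The 15 macroscopic ones (11116 UMIs) held 3149 CPM of Apoa1 (35 UMIs, against 141 CPM in macroscopic T cells), 1799 CPM each of Apoa2 and Apoc1 (20 UMIs each, against 51.3 and 57.7 CPM), 450 CPM (449.8, 5 UMIs) of Apob, 359.8 CPM each of Apoc3 and Apoh (4 UMIs each) and 11605 CPM of Apoe (129 UMIs, against 211 CPM). The 601 early ones (434754 UMIs) held 7317 CPM of Apoe (3181 UMIs, against 98.2 CPM in early T cells), 685 CPM of Apoc1 (298 UMIs, against 10.3 CPM) and 92.0 CPM of Apoa2 (40 UMIs, against 5.17 CPM on 1 UMI). Whether these are small cells or free RNA was not tested.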

How the results depend on the processing

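Of 79 counts and medians recomputed under the alternatives, 66 stayed within the limits set for them, and of 110 log2 ratios of single genes between stages 103 kept their side of 2-fold, 6 passed it and 1 fell short of it. The 3 genes at least 2-fold higher in macroscopic hepatocytes were joined by Apoa1 (log2 ratio 1.02) when libraries were scaled by median of ratios, which moves all genes by 0.28 on the log2 scale. With barcodes thinned to 1000 UMIs Apoa1 passed 2-fold (1.07) and Apoc2 fell short (0.32), so that count stayed at 3. The count of genes at least 2-fold lower, 1, became 2 with barcodes thinned to 1000 UMIs, 2 with barcodes weighted equally and 3 per 100 Alb UMIs (an alternative added after the data were seen). Apob was the gene added under each (log2 ratios of -1.35, -1.16 and -1.32), with Apoc3 (-1.14) per 100 Alb UMIs. The 3 genes higher in Kupffer than in T cells by CPM became 5 when barcodes of several gates were let into each class and 5 with the Alb gate at 2%, and the 1 in other macrophages became 3 with several gates allowed, 2 with marker gates doubled, 2 when thinned and 3 with equal weights. The 4 in duct cells became 2 when thinned and 1 over the 3 duct barcodes without Alb. Per 100 Alb UMIs, 2 genes in Kupffer cells (Apoe and Apoc1) became 1, and 1 in other macrophages (Apoe) became 2, with several gates allowed. These T cell comparisons rest on 0 to 3 T cell UMIs for every gene but Apoe. No paired analysis was possible because there was 1 library per stage. No test between stages can be made with 1 library each, and stage, animal and sex cannot be told apart.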

Other observations

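Apoc4, which lies between Apoc2 and Apoc1 and was picked after its values were seen, had 642 CPM in macroscopic and 326 CPM in early hepatocytes, and 13.8 CPM in early Kupffer cells. Apom and Apof, 2 further hepatocyte apolipoproteins picked in the same way, had 491 and 431 CPM in macroscopic hepatocytes and 604 and 571 CPM in early hepatocytes, with 1.48 CPM each in early Kupffer cells. Lpl, the lipase that Apoc2 activates, had 253 CPM in macroscopic and 516 CPM in early hepatocytes, and 471 CPM in early Kupffer cells.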
